A study of Mus musculus with 12 samples.

Results

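The carriers described here move amino acids, monocarboxylates such as lactate and pyruvate, taurine, betaine and creatine across cell membranes. They were chosen by name, as the genes of the solute carrier families Slc1a, Slc3a, Slc6a, Slc7a, Slc16a, Slc36a, Slc38a and Slc43a, and 73 were found among the 18193 genes that the array's annotation pairs with a probe set of their own. The 73 carriers were read by 144 probe sets, of which the brightest of each gene (highest mean log2 signal over the 12 arrays) gave its value, and the other 71 were read beside it. Genes on the opposite strand that share the spelling of a carrier (Slc36a1os, Slc6a19os and Slc7a6os) were set apart as 3 genes that are not carriers.

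Liver RNA was measured on 12 Affymetrix Mouse Genome 430 2.0 arrays, each from 1 adult male C57BL/6 mouse, with 4 mice per group. Control mice were sham-treated in clean air, SHS4m mice were exposed whole body to secondhand smoke (SHS) for 4 months, and SHS4m+1m recovery mice were exposed in the same way and then kept in clean air for 1 month. The study had sham controls for either time point, and the labels do not say to which of these the 4 control mice belonged, so age and the length of time in the facility cannot be told apart from the exposure in comparisons with control. Recovery mice were taken 1 month later in the schedule than SHS4m mice, so age and the month in clean air cannot be told apart in recovery against SHS4m. The RNA came from whole liver, in which fewer cells of a type and less RNA per cell cannot be told apart.

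A hepatocyte takes up amino acids from portal blood to make plasma proteins, glucose and urea, and releases others, and each step has carriers of its own. Sodium-coupled carriers of the Slc38a and Slc6a families can load the cell against a gradient. The Slc7a family is split between carriers of cationic amino acids that work alone and exchangers that reach the membrane only in a pair with a heavy chain of the Slc3a family. Slc16a carriers move monocarboxylates together with protons, or aromatic amino acids by facilitated diffusion, and several of them need the glycoprotein basigin to reach the surface. The carriers of the Slc36a family sit largely in the lysosome, where amino acids are sensed by the growth kinase complex mTORC1.

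Signals below 32 were raised to this floor, and values are on the log2 scale, on which the floor is at 5. Of the 73 carriers, 26 were well above the floor (mean log2 signal of at least 8 over the 12 arrays), 14 were between and 33 were near it (mean below 6). Slc43a2, at a mean log2 signal of 8.16, was the last carrier inside the upper class and Slc38a9, at 7.86, the first outside it. All 3 Slc43a carriers and both Slc3a heavy chains were well above the floor, as were 6 of 9 Slc38a, 5 of 13 Slc16a and 2 of 4 Slc36a carriers. In contrast, 5 of 20 Slc6a, 2 of 15 Slc7a and 1 of 7 Slc1a carriers were. Slc1a6, Slc6a20a and Slc7a15 were at the floor on all 12 arrays, while 36 carriers were above it on all 12. The signal of a probe set also depends on its own sequence, so signals of different carriers are distances from the floor and not amounts that can be ranked.

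**Figure D1:**
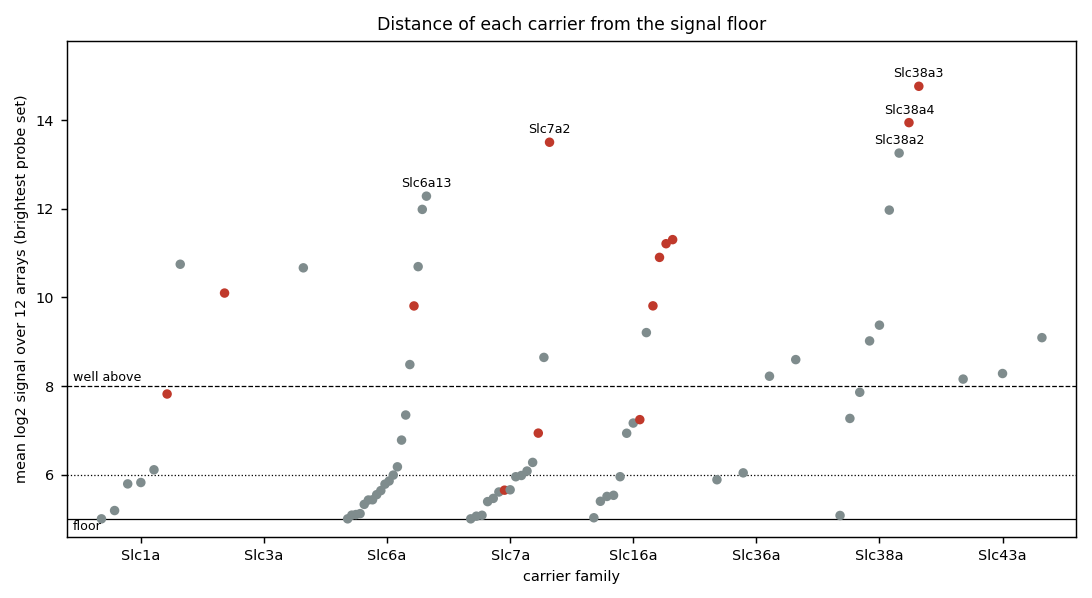
Mean log2 signal over the 12 arrays of the brightest probe set of each of the 73 carriers, by family (x axis). Each point is a carrier, red points passed the adjusted p in at least 1 comparison, the solid line is the floor at log2 5, and the dotted and dashed lines are the limits at 6 and 8. The 5 named points, Slc38a3, Slc38a4, Slc38a2, Slc7a2 and Slc6a13, lie above 12, and 33 points lie below the dotted line.

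The samples showed the tissue they were labelled with. All 8 measured hepatocyte markers were well above the floor and none passed the adjusted p (limma) in any comparison, with 3, 1 and 1 of 8 at an unadjusted p under 0.05 in SHS4m against control, recovery against control and recovery against SHS4m. Array 72 of the recovery group stood apart in RNA quality, with a ratio of 3′ to 5′ signal of 8.82 for actin against 3.24 to 4.64 on the other 11 arrays, and 4.52 for Gapdh against 2.24 to 2.95. Calls of carriers in the recovery group by the adjusted p are also given without it, and other values of that group include it. Among markers of other cells, the macrophage receptor Marco was higher in SHS4m than in control (log2 difference 1.90, adjusted p = 0.0137, limma) and the Kupffer cell lectin Clec4f lower (-0.51, adjusted p = 0.0173). The summed signal of the 10 macrophage markers was 18175 to 22532 in control, 14773 to 18715 in SHS4m and 15954 to 22302 in recovery. Of these 10 markers 6 had an unadjusted p under 0.05 in SHS4m against control, and their median log2 difference was -0.33, against -0.01 over all genes. Of the other marker lists, the 6 neutrophil, 9 lymphocyte, 8 endothelial, 8 stellate and 6 cholangiocyte genes measured had none past the adjusted p in SHS4m against control, and 0, 2, 1, 1 and 2 genes at an unadjusted p under 0.05. Of 5 erythroid and 5 proliferation genes 1 each was higher in SHS4m, Slc4a1 (1.36, adjusted p = 0.00566) and Cdk1 (1.31, adjusted p = 0.0256). This was 20% of each list, against 7.47% of all genes. The median log2 differences of the 2 lists were below 0, at -0.07 for the erythroid and -0.17 for the proliferation genes. The part of other cells in the carrier results was not tested.

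In SHS4m against control, 9 of the 73 carriers passed the adjusted p under 0.05 (limma, Benjamini-Hochberg over all probe sets), or 12.3% against 7.47% of all genes. Of these, 7 rose (Slc16a5, Slc7a2, Slc16a10, Slc16a7, Slc6a12, Slc38a4 and Slc3a2) and 2 fell (Slc7a8 and Slc7a9). Among the 26 carriers well above the floor 6 were called, all of them higher, or 23.1% against 14.8% of the 7816 genes of that class. At the threshold of the study, an unadjusted p under 0.05 with a 2-fold change, Slc16a5 and Slc7a8 remained, or 2.74% of carriers against 2.81% of genes. Among the 26 carriers well above the floor 0 passed it, against 3.06% of genes of that class. At an unadjusted p under 0.05 alone, 15 carriers were higher and 3 lower, and the share of all genes at this threshold was not counted. Of the 26 carriers well above the floor, 21 had a positive log2 difference (80.8%, against 48.1% of all genes of that class), and their median difference was 0.34 against -0.01. With a floor of 1 in place of 32, 4 carriers were called (Slc16a5, Slc16a10, Slc7a2 and Slc7a8). The count of positive differences was also 21 under quantile normalization, and 23 when each array was centred on its median, a scaling under which 58.8% of all genes of that class were positive.

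Cationic amino acids enter hepatocytes mainly through Slc7a2, a carrier of arginine, lysine and ornithine. Its signal was 6645, 11791, 7731 and 7179 in control, 15447, 18535, 17662 and 13510 in SHS4m, and 11650, 14006, 12975 and 9828 in recovery. Every SHS4m array was above every control array, whereas the recovery arrays lay among and above the controls. The rise in SHS4m was 1.99-fold (log2 0.99 ± 0.19 SE, n = 4 per group, adjusted p = 0.0161, limma). In recovery the difference from control was 0.57 ± 0.19 (adjusted p = 0.196), and that from SHS4m was -0.43 (adjusted p = 0.353). Of the other 3 probe sets of Slc7a2, 2 were called higher in SHS4m as well, by 0.77 and 0.84 (adjusted p = 0.0124 and 0.0357), and the last had 0.56 (adjusted p = 0.558).

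Its closest relatives Slc7a1 and Slc7a3, which also carry cationic amino acids without a heavy chain, were near the floor or just above it. Slc7a1, the widely expressed form, had signals of 31.01 to 59.43 in control, 30.77 to 52.92 in SHS4m and 50.57 to 117.5 in recovery, and passed no test (adjusted p = 0.731 for SHS4m and 0.483 for recovery against control). Slc7a4, a relative of Slc7a2 by sequence, gave 260, 380, 333 and 350 in control, 529, 393, 587 and 355 in SHS4m, and 473, 491, 385 and 384 in recovery by its brightest probe set (log2 difference of SHS4m from control 0.48 ± 0.18, adjusted p = 0.194). A dimmer probe set of Slc7a4 rose in SHS4m, from 83.77, 44.1, 104.8 and 95.76 to 190.3, 233.8, 137.1 and 229.6 (log2 difference 1.31 ± 0.29, adjusted p = 0.0312). Both had higher means in SHS4m, the dimmer may by the maker's naming match more than 1 transcript, and the last probe set was near the floor.

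The heavy chain Slc3a2 rose in SHS4m, while the light chains Slc7a8 and Slc7a9 fell. Slc3a2, the heavy chain of the exchangers Slc7a5, Slc7a6, Slc7a7, Slc7a8, Slc7a10 and Slc7a11, had signals of 968, 980, 912 and 1003 in control, 1100, 1153, 1345 and 1399 in SHS4m, and 1065, 1047, 1118 and 1183 in recovery. Each SHS4m array was above each control array, and the rise was 1.29-fold (log2 0.37 ± 0.08, adjusted p = 0.0257). Its partner Slc7a8, an exchanger of neutral amino acids, had signals of 171, 111, 201 and 163 in control, 89.2, 59.5, 89.7 and 77.8 in SHS4m, and 152, 128, 169 and 152 in recovery. All SHS4m arrays were below all arrays of either other group, and recovery overlapped control. The difference of SHS4m from control was -1.02 ± 0.19 (adjusted p = 0.0158), that of recovery from SHS4m 0.94 ± 0.19 (adjusted p = 0.0369), and that of recovery from control -0.08 ± 0.19 (adjusted p = 0.975).

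Slc3a1, the heavy chain that pairs with Slc7a9 to take up cystine and cationic amino acids, had signals of 1135, 1177, 1738 and 1645 in control and 2606, 1430, 1857 and 2609 in SHS4m, which overlapped (log2 difference 0.56 ± 0.26, adjusted p = 0.305). Slc7a9 itself was near the floor, with 58.2, 59.9, 74.2 and 87.6 in control, 32.8, 39.7, 35.8 and 48.8 in SHS4m, and 53.2, 43.4, 52.9 and 39.8 in recovery. It fell in SHS4m (log2 difference -0.83 ± 0.17, adjusted p = 0.0213), and did not pass the test in recovery against control (-0.55, adjusted p = 0.154). Of the 15 Slc7a carriers 5, 3 and 3 had an unadjusted p under 0.05 in SHS4m against control, recovery against control and recovery against SHS4m, and 3, 0 and 1 of them passed the adjusted p (limma). Over all genes 7.47%, 2.52% and 3.68% passed the adjusted p in these comparisons, and the share at the unadjusted p was not counted. The other light chains were dim. Slc7a5, an exchanger of large neutral amino acids, ranged from 82.3 to 152 in control, from 29.6 to 161 in SHS4m and from 27.3 to 114 in recovery, and Slc7a11, the cystine-glutamate exchanger, from 27.1 to 69.4, from 9.35 to 69.1 and from 5.11 to 67.8. Slc7a6 met the study's threshold in recovery (log2 difference from control -1.20 ± 0.35, adjusted p = 0.137) but not the adjusted p. Its signals were 97.8, 94.01, 98.45 and 31.38 in control and 12.96, 5.164, 12.9 and 11.86 in recovery. All 4 recovery arrays and 1 control array were below the floor, so the size of this difference depends on the floor. Several calls of these exchangers depended on single arrays. Leaving out control 1, 2, 3 or 4 or SHS4m 68 or 69 ended the call of Slc3a2 (adjusted p up to 0.0726), and leaving out control 3 or 4 or SHS4m 66, 67 or 68 that of Slc7a9 (up to 0.0613). The rise of Slc7a8 in recovery over SHS4m was lost without control 1 or 4, or any SHS4m or recovery array (up to 0.0926), and its fall in SHS4m when only the 8 arrays compared were fitted (adjusted p = 0.0545). That fit also ended the calls of Slc3a2 and Slc7a9 (adjusted p = 0.0693 and 0.0536), and other floors ended that of Slc3a2 (0.108 for the 25th percentile and 0.167 for 1) and of Slc7a9 (0.0527 for 1).

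**Figure D2:**
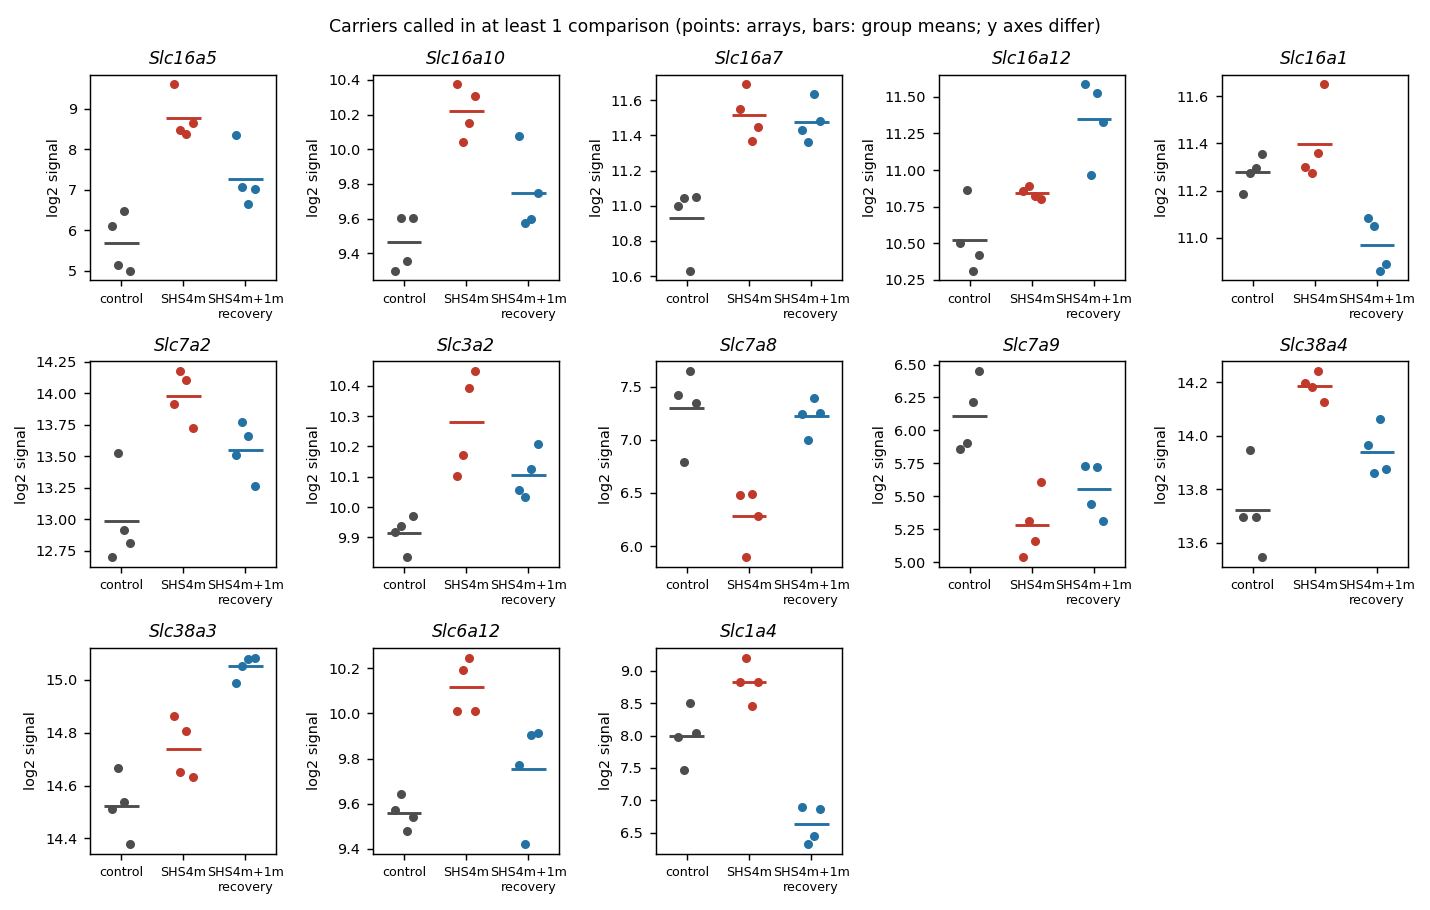
Log2 signal (y axis, a separate range in each panel) of the 13 carriers that passed the adjusted p in at least 1 comparison, with 4 arrays per group as points and group means as bars. In Slc16a5, Slc16a10, Slc16a7, Slc7a2, Slc3a2, Slc38a4 and Slc6a12 all SHS4m points are above all control points. In Slc7a8 they are below, and in Slc1a4 the 4 recovery points are below all others.

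The Slc38a family carries glutamine, alanine and other small neutral amino acids with sodium, and it had 3 of the 5 carriers with a mean log2 signal above 12. Slc38a4, a carrier of system A in hepatocytes, had signals of 13265, 15781, 13291 and 11953 in control, 18784, 18598, 19393 and 17889 in SHS4m, and 15979, 14888, 17108 and 15026 in recovery. The SHS4m arrays were above all others, and the rise over control was 1.38-fold (log2 0.47 ± 0.08, adjusted p = 0.00955). Its other probe set gave 0.28 ± 0.05 (adjusted p = 0.0076). In recovery the difference from control was 0.22 (adjusted p = 0.231).

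Slc38a2, the system A carrier that cells induce when amino acids run short, had the second largest log2 difference from control among the 26 carriers well above the floor, after Slc7a2, and missed the adjusted p. It was 6326, 11126, 5487 and 6785 in control, 13240, 17089, 14468 and 11664 in SHS4m, and 7951, 12122, 11743 and 7136 in recovery. Control array 2 was the highest of its group for Slc38a2, Slc7a2 and Slc38a4. Every SHS4m array was still above it, with a log2 difference of 0.97 ± 0.25 (adjusted p = 0.0572).

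A different time course was seen in Slc38a3, the system N carrier that exchanges glutamine, histidine and asparagine with the blood. Its signal was 23349, 26024, 23763 and 21282 in control, 29770, 25764, 28693 and 25388 in SHS4m, and 32512, 33942, 34624 and 34744 in recovery. The recovery arrays were above all others, and SHS4m overlapped control. The rise of recovery over control was 1.44-fold (log2 0.53 ± 0.07, adjusted p = 0.00822), and that over SHS4m was 0.31 ± 0.07 (adjusted p = 0.0468). The second, dimmer probe set had 0.28 ± 0.12 against control (adjusted p = 0.346). Without array 72 the difference from control was 0.52 (adjusted p = 0.0247) and that from SHS4m 0.30 (adjusted p = 0.108). The call against SHS4m was lost without any of the SHS4m or recovery arrays, or control 1 or 3 (adjusted p up to 0.114), and under quantile normalization (0.130) or median centring (0.158).

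Slc38a10 was read by 7 probe sets that did not move together. The brightest had 3691, 3630, 3701 and 3762 in control and 4342, 4703, 4101 and 5101 in SHS4m, a log2 difference of 0.30 ± 0.08 (adjusted p = 0.0699). A second probe set was called higher, with 955, 885, 938 and 886 in control against 1290, 1153, 1095 and 1103 (log2 difference 0.34 ± 0.05, adjusted p = 0.00657). Another went the other way, from 131, 259, 286 and 196 in control to 44.2, 4.13, 26.8 and 49.6 in SHS4m and back to 106, 163, 133 and 134 in recovery. It fell by 2.43 in SHS4m on the log2 scale (adjusted p = 0.00117), with 2 of 4 arrays at the floor, and rose by 1.78 in recovery over SHS4m (adjusted p = 0.00879). By the maker's naming this probe set may bind other transcripts, and the 4 remaining probe sets were not called in that comparison (adjusted p from 0.753 to 1). The lysosomal arginine sensor Slc38a9, also read by 7 probe sets, had adjusted p from 0.378 to 1 in that comparison, and its brightest lay between 197 and 281 on all 12 arrays.

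**Figure D3:**
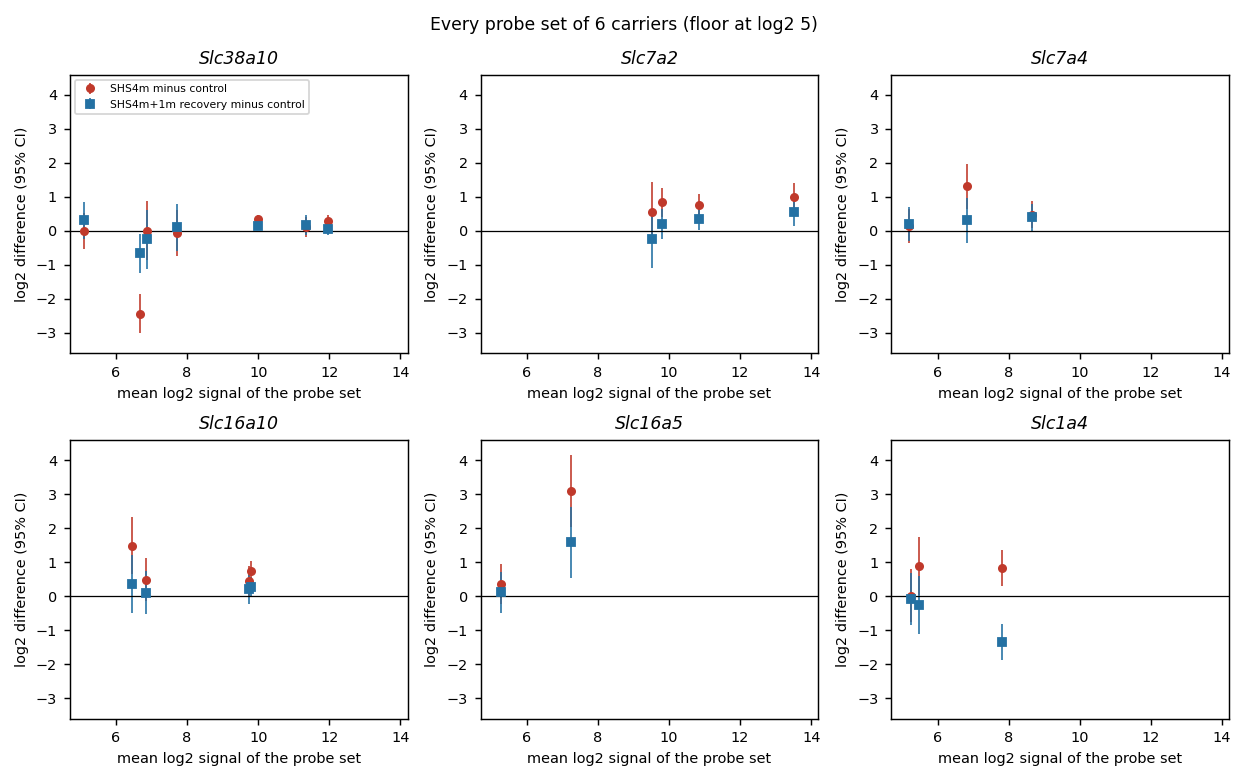
Log2 difference (y axis, with 95% confidence interval from the limma fit) of every probe set of 6 carriers against its mean log2 signal over 12 arrays (x axis, floor at 5). Circles are SHS4m minus control and squares are SHS4m+1m recovery minus control. The 4 probe sets of Slc7a2 are all above 0 in SHS4m, while a dim probe set of Slc38a10 is at -2.43 and the brightest at 0.30.

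Slc1a4, an exchanger of alanine, serine, cysteine and threonine, had the largest fall among carriers in recovery. Its signal was 251, 177, 363 and 262 in control, 454, 588, 351 and 454 in SHS4m, and 120, 80.1, 87.2 and 117 in recovery. The recovery arrays were below all others, and SHS4m and control overlapped in 1 array of each. The difference of recovery from control was -1.36 ± 0.24 (adjusted p = 0.0235), that from SHS4m -2.19 ± 0.24 (adjusted p = 0.00247), and that of SHS4m from control 0.83 ± 0.24 (adjusted p = 0.0791). Its 2 other probe sets lay close to the floor and did not pass the adjusted p, with -1.16 and -0.10 against SHS4m (adjusted p = 0.175 and 1), though the first of them met the study's threshold. Without array 72 the 2 differences of recovery were -1.29 (adjusted p = 0.0646) and -2.13 (adjusted p = 0.00974). The call against control was also lost without control 1, 3 or 4 or recovery 71 (adjusted p up to 0.0646), and by the median over the 3 probe sets the differences were -0.35 against control and -0.96 against SHS4m (adjusted p = 0.780 and 0.293).

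The glutamate and glutamine carriers Slc1a2 and Slc1a5 of the same family did not pass the adjusted p. Slc1a2, a glutamate carrier of hepatocytes around the central vein, had signals of 1589, 1770, 1082 and 1872 in control, 2603, 2089, 1780 and 2031 in SHS4m, and 2010, 1604, 1159 and 1647 in recovery (log2 difference of SHS4m 0.45 ± 0.21, adjusted p = 0.32). The glutamine carrier Slc1a5 ranged from 19.1 to 224 within the control group alone, and its differences from control were 0.23 ± 0.61 in SHS4m and -0.30 ± 0.61 in recovery (adjusted p = 0.968 and 0.949).

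Carriers of the Slc6a family bring in taurine, betaine, glycine and creatine with sodium and chloride. Slc6a12, the betaine carrier, rose in SHS4m from 762, 800, 713 and 746 to 1033, 1169, 1216 and 1033, with no overlap, or 1.47-fold (log2 0.56 ± 0.11, adjusted p = 0.0171). In recovery it was 874, 685, 958 and 964 (difference from control 0.19, adjusted p = 0.507). Leaving out control 3 moved the adjusted p of the rise to 0.0512. Slc6a9, a glycine carrier, had differences of 0.45 in SHS4m and 0.40 in recovery (adjusted p = 0.0718 and 0.17). Slc6a13, which carries taurine and GABA, lay between 4354 and 5822 on all 12 arrays and Slc6a6, the taurine carrier, between 2757 and 6487, with differences of SHS4m from control of -0.13 and -0.21 (adjusted p = 0.661 and 0.715). The creatine carrier Slc6a8 had 0.41 (adjusted p = 0.282). The carriers of serotonin, dopamine and noradrenaline (Slc6a4, Slc6a3 and Slc6a2) were below the upper class. Of all 20 Slc6a carriers 3, 2 and 2 had an unadjusted p under 0.05 in the 3 comparisons, and Slc6a12 in SHS4m alone passed the adjusted p (limma). The shares of all genes past the adjusted p were 7.47%, 2.52% and 3.68%.

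**Figure D4:**
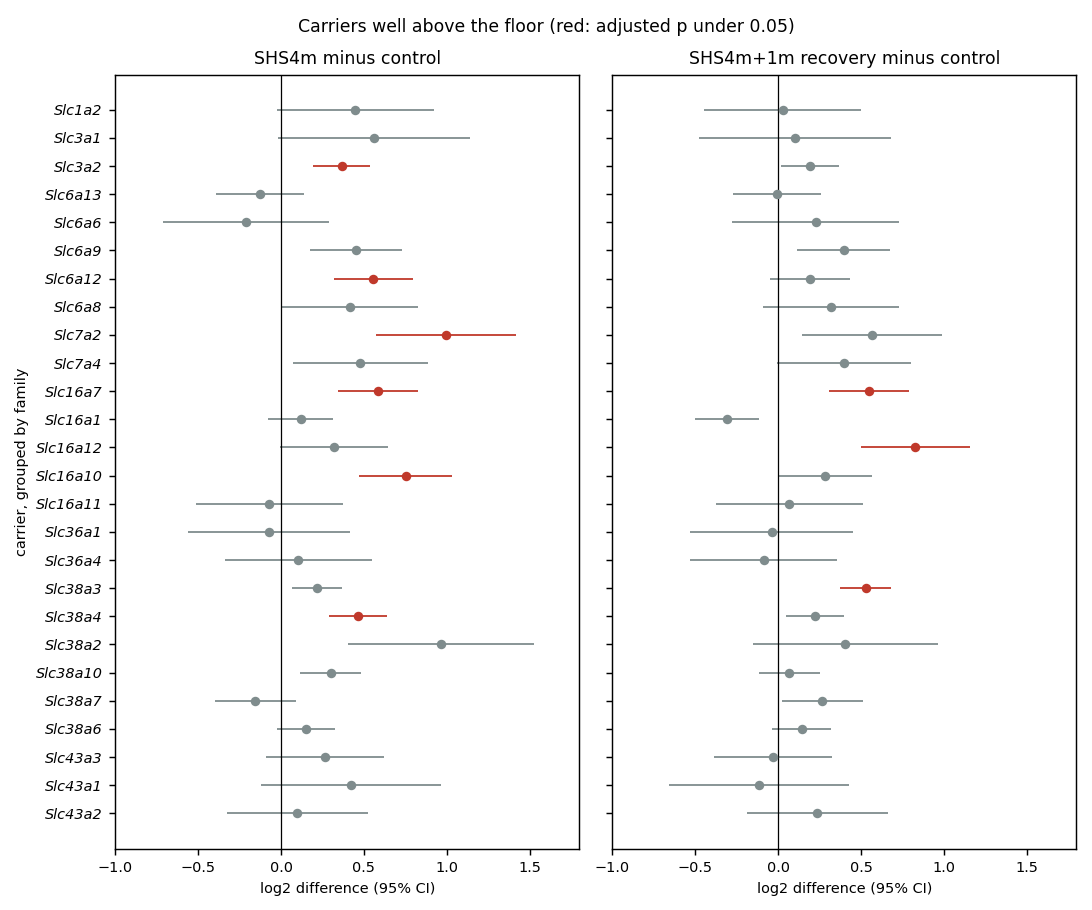
Log2 difference (x axis, points) with its 95% confidence interval (lines) for the 26 carriers well above the floor, in SHS4m (left) and SHS4m+1m recovery (right) against control, grouped by family. Red marks an adjusted p under 0.05. On the left 21 of 26 points are above 0 and 6 are red, and on the right 20 are above 0 and 3 are red.

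Monocarboxylate carriers held the largest rise. Slc16a5, which is known to carry drugs and whose natural substrate is not settled, had signals of 68.9, 35.1, 88.9 and 8.17 in control, 783, 358, 330 and 401 in SHS4m, and 328, 134, 99.8 and 129 in recovery. Recovery arrays lay above every control array and below every SHS4m array, though the highest of them, at 328, was close to the lowest of SHS4m, at 330. The log2 difference of SHS4m from control was 3.10 ± 0.47 (adjusted p = 0.00596). That of recovery from control was 1.59 and that of recovery from SHS4m -1.51, both at 2-fold with an unadjusted p under 0.05 and neither past the adjusted p (0.142 and 0.151). Because 1 control array was below the floor, the size of the rise depends on the floor, and it was 3.59 with a floor of 1. The other probe set of Slc16a5 was near the floor (log2 difference 0.36, adjusted p = 0.6), and by the median over both probe sets the rise was 1.73 (adjusted p = 0.00487).

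Slc16a10, the carrier of aromatic amino acids, had signals of 631, 778, 656 and 779 in control, 1330, 1052, 1136 and 1266 in SHS4m, and 1078, 764, 775 and 858 in recovery. All SHS4m arrays were above all control arrays, by 1.68-fold (log2 0.75 ± 0.13, adjusted p = 0.00958). Its 3 other probe sets had differences of 0.44, 0.49 and 1.48 (adjusted p = 0.274, 0.437 and 0.0533). The last of them, the dimmest, met the study's threshold in SHS4m against control. It also met that threshold in recovery against SHS4m (-1.12, adjusted p = 0.187). In recovery the difference from control was 0.28 (adjusted p = 0.377).

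Slc16a7, a high-affinity carrier of lactate, pyruvate and ketone bodies, was higher in both exposed groups. It had 2042, 2114, 1586 and 2116 in control, 2994, 3310, 2642 and 2791 in SHS4m, and 2759, 2637, 3183 and 2856 in recovery. Neither exposed group overlapped control, and the 2 groups differed by -0.04 (adjusted p = 1). The differences from the shared controls were 0.58 ± 0.11 in SHS4m (adjusted p = 0.0141) and 0.55 ± 0.11 in recovery (adjusted p = 0.0356). Without array 72 the second was 0.49 (adjusted p = 0.0883), and it also lost its call without control 1, 3 or 4, SHS4m 66 or 69, or recovery 70, 71 or 73 (adjusted p up to 0.0883 in all).

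Slc16a12, which carries creatine, was called in recovery against control, with 1447, 1862, 1272 and 1369 in control, 1854, 1898, 1815 and 1786 in SHS4m, and 3079, 2002, 2947 and 2565 in recovery. The recovery arrays were above all others (log2 difference from control 0.83 ± 0.15, adjusted p = 0.0241), while SHS4m had 0.32 (adjusted p = 0.3). The difference between recovery and SHS4m was 0.51 ± 0.15 (adjusted p = 0.123), so the later rise was not shown to exceed the earlier value. Without array 72 the difference from control was 0.77 (adjusted p = 0.0656), and leaving out control 1, 3 or 4 or recovery 73 also ended the call (adjusted p up to 0.0683).

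Slc16a1, the general lactate and pyruvate carrier, had signals of 2332, 2476, 2515 and 2620 in control, 2520, 2476, 2626 and 3218 in SHS4m, and 2167, 2119, 1859 and 1896 in recovery. Recovery was below both other groups on every array. It fell by 0.43 against SHS4m on the log2 scale (adjusted p = 0.0365), and the difference from control was -0.31 (adjusted p = 0.126). The call was lost without any of 9 arrays, namely control 1 to 4, SHS4m 66 and 68, and recovery 71 to 73 (adjusted p up to 0.091). Basigin (Bsg), the chaperone that takes Slc16a1 to the membrane, rose in SHS4m (log2 difference 0.40 ± 0.06, adjusted p = 0.00584) and was lower in recovery than in SHS4m (-0.43 ± 0.06, adjusted p = 0.00805). The 8 other genes measured around monocarboxylates, among them the lactate dehydrogenases Ldha and Ldhb, were not called in any comparison. The calls of Bsg made 11.1% of the 9 genes in either comparison, against 7.47% of all genes in SHS4m against control and 3.68% in recovery against SHS4m. Of all 9, 2, 1 and 3 were at an unadjusted p under 0.05 in the 3 comparisons. The share of all genes at that threshold was not counted. Slc16a6, a carrier of ketone bodies, met only the study's threshold, in recovery (difference from control -1.07 ± 0.39, adjusted p = 0.239).

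The lysosomal and facilitative carriers showed no call. By their brightest probe sets, the 4 Slc36a and 3 Slc43a carriers had none past the adjusted p (limma) in any comparison. None of these probe sets was at an unadjusted p under 0.05 in any comparison either. Their differences of SHS4m from control lay between -0.30 and 0.10 in the first family and between 0.10 and 0.42 in the second. The 2 other probe sets of Slc43a2 were both lower on average in SHS4m than in control. Of these 2, 1 was at an unadjusted p under 0.05 in that comparison and 0 passed the adjusted p. Slc36a1, a lysosomal carrier of small amino acids, ranged from 253 to 557 in control, 325 to 463 in SHS4m and 333 to 433 in recovery. Slc43a1, a carrier of branched-chain amino acids, ranged from 204 to 359, 320 to 495 and 182 to 376.

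After 1 month in clean air, 4 of 73 carriers passed the adjusted p against control (5.48%, against 2.52% of all genes), 3 of them higher (Slc38a3, Slc16a7 and Slc16a12) and 1 lower (Slc1a4). Among carriers well above the floor 3 of 26 were called, or 11.5% against 5.25%. At the study's threshold 4 carriers passed (Slc16a5, Slc16a6, Slc1a4 and Slc7a6), or 5.48% against 1.21%. All of these were below the upper class, and 0 of the 26 carriers well above the floor passed it, against 1.18% of genes of that class. Of the 26, 20 had a positive difference (76.9% against 52.1%), with a median of 0.21 against 0.01. Without array 72, 2 carriers were called against control, of which Slc38a3 was also called with it. Counts were also lower without control 1 (1 carrier), control 3 (1), control 4 (2), recovery 71 (2) or recovery 73 (2).

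Between recovery and SHS4m, 4 of 73 carriers passed (5.48% against 3.68% of all genes), Slc38a3 and Slc7a8 higher in recovery and Slc1a4 and Slc16a1 lower. Of the carriers well above the floor these were 2 of 26, or 7.69% against 7.24%, and at the study's threshold Slc16a5 and Slc1a4 passed, or 2.74% against 1.93%. At that threshold 0 of the 26 passed, against 2.01% of genes of that class. In this comparison 8 of 26 differences were positive (30.8% against 54.2%), with a median of -0.13 against 0.02. Without array 72, 2 carriers were called, of which Slc1a4 was also called with it.

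The genes that cells switch on through the transcription factor ATF4 when amino acids are short include several of these carriers, Slc38a2, Slc7a11, Slc3a2 and Slc1a4 among them, and the 19 further genes of that response that were measured had mixed results. In SHS4m 4 rose (Asns, Shmt2, Cebpb and Eif4ebp1) and 1 fell (Cebpg), or 26.3% of the list against 7.47% of all genes, and the median difference was -0.09, against -0.01 over all genes. Asns, which makes asparagine, rose by 1.97 ± 0.38 on the log2 scale (adjusted p = 0.0177) and fell in recovery to 0.19 times its signal in SHS4m (adjusted p = 0.0131). Shmt2, a mitochondrial enzyme of serine and glycine, rose by 0.56 ± 0.05 (adjusted p = 0.000602) and fell by 0.45 in recovery (adjusted p = 0.0031). Atf4 itself had -0.46 (adjusted p = 0.195), and the stress genes Ddit3, Trib3 and Chac1 had -0.62, 0.10 and 0.25 (adjusted p = 0.0995, 1 and 0.725). Ddit4, an inhibitor of mTORC1, had the largest difference of the list and missed the adjusted p, with 2.15 ± 0.57 in SHS4m (adjusted p = 0.0635) and -2.08 in recovery against SHS4m (adjusted p = 0.106).

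Genes around the carriers were read from further lists. A list of 17 carriers of amino acids or peptides, most of them in mitochondria or vesicles, lay outside the 8 families. Called in this list were 5.88% in SHS4m against control (7.47% of all genes) and 11.8% in recovery against SHS4m (3.68% of all genes). Of these, the lysosomal histidine carrier Slc15a4 was higher in SHS4m (0.72, adjusted p = 0.00972), and the aspartate-glutamate carrier Slc25a12 and the ornithine carrier Slc25a15 were lower in recovery than in SHS4m (-0.81 and -0.44, adjusted p = 0.0191 and 0.0192). Of 25 genes of amino acid sensing and mTORC1, Rragc alone was called, higher in recovery than in control (0.34, adjusted p = 0.016), or 4% against 2.52% of all genes. None of the 6 genes of heteromer assembly and trafficking was called in any comparison (limma), with 2, 2 and 1 at an unadjusted p under 0.05. Of the 7 periportal markers 1 rose in SHS4m (14.3%), the gluconeogenic enzyme Pck1 (1.20, adjusted p = 0.0126). Of the 9 pericentral markers 22.2% were called, against 7.47% of all genes, as Cyp1a2 rose (0.42, adjusted p = 0.00392) and Lgr5 fell (-1.03, adjusted p = 0.0257). The summed signal of the 7 periportal markers was 105615 to 114425 in control and 112378 to 125576 in SHS4m, while their median log2 difference was -0.08. That of the 9 pericentral markers was 141579 to 153674 in control and 131880 to 144776 in SHS4m, with a median difference of -0.02. Whether these genes and the carriers change together was not tested.

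The promoter sequence is shown for Slc1a4, Slc16a10, Slc16a12 and Slc16a1, and for Slc7a11 as a known target of ATF4. All but Slc7a11 are called carriers with a start site in the table. The called carriers Slc3a2, Slc7a8, Slc7a9, Slc38a4 and Slc6a12 also have start sites, and their sequences are not printed. Whether motifs differ between carriers that were called and others was not tested. Start sites were given for 52 of the 73 carriers in the RefSeq table (GRCm38.p6), 73 sites in all among 32851 of all genes, and the 250 bases before each site were searched on both strands. The C/EBP-ATF element TTGCATCA was found at 2.74% of carrier sites and 0.791% of all sites, the E-box CACGTG at 15.1% and 6.02%, the dioxin response core GCGTG at 32.9% and 28.2%, the D-box TTATGNAA at 2.74% and 3.07%, and the CRE TGACGTCA at 1.37% and 1.55%. Capitals mark these motifs on either strand, so that CACGC is the dioxin response core read on the other strand. The sites are on chr11:20332714-20332963 (minus strand) for Slc1a4, chr3:50443614-50443863 (minus) for Slc7a11, chr10:40142255-40142504 (minus) for Slc16a10, chr19:34747329-34747578 (minus) for Slc16a12 and chr3:104638414-104638663 (plus) for Slc16a1, each written 5′ to 3′ with the start site after the last base.
Slc1a4: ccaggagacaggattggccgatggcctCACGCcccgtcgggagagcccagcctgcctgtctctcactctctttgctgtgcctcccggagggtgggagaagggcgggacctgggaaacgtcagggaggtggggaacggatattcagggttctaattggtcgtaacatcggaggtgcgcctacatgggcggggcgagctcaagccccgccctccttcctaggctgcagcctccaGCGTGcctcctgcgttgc
Slc7a11: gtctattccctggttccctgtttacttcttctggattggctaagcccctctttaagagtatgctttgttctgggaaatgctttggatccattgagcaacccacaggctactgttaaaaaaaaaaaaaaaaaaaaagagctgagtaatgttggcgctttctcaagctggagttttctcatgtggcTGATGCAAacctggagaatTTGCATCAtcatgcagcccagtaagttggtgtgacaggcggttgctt
Slc16a10: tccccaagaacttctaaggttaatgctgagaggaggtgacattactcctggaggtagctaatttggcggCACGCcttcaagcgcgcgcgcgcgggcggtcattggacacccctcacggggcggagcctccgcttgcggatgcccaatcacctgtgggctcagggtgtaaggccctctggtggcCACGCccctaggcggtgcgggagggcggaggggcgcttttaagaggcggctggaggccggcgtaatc
Slc16a12: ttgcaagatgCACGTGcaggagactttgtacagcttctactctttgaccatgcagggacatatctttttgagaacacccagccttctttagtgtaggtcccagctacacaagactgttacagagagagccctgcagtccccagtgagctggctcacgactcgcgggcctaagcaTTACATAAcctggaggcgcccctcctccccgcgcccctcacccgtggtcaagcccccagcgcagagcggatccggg
Slc16a1: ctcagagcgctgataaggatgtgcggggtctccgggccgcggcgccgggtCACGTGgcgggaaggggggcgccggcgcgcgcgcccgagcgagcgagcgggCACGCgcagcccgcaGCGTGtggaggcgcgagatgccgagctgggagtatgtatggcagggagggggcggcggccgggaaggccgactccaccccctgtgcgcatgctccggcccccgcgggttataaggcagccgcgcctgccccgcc

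Slc7a11 held the C/EBP-ATF element at 66 and 47 bases before its start and was near the floor with differences of -0.03 and -0.02 from control. Slc1a4, which was lowest in recovery, held none in this window and the dioxin response core at 223 and 18 bases before its start. Slc16a10 held that core at 181 and 67 bases, Slc16a12 an E-box at 240 and a D-box at 76, and Slc16a1 an E-box at 200 and the core at 149 and 134. Of the called carriers whose sequences are not printed, Slc3a2, Slc7a8 and Slc6a12 held none of the motifs searched for. Slc38a4 and Slc7a9 held the dioxin response core and no other of these motifs. No motif matches printed here overlap each other. A match describes the letters in the window, and binding was not measured.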

How the data were processed

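Liver RNA of 12 mice was hybridised to 12 Affymetrix Mouse Genome 430 2.0 arrays, 4 per group. The deposited intensity values were made by the authors with Affymetrix Expression Console on a linear scale, scaled so that the mean of each array after trimming 2% at each end was 500. How the probes of a set were combined is not stated in the sources used here. Each array is its own mouse, the number of arrays limits the precision, and no batch was given in the labels. Values under 32 were raised to 32 and log2 taken.

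All 45037 probe sets other than 64 array controls were tested with limma 3.58.1 (R 4.3.3, lmFit and eBayes, a model of 3 group means over 12 arrays, two-sided) with Benjamini-Hochberg adjustment over all of them, and a call is an adjusted p under 0.05. The test was checked on simulated data. Probe sets were named through a table of the array's annotation, in which 34945 name 1 gene, 932 several and 9160 none, and 1 that names several genes and a carrier was left out. A gene was read by its brightest probe set. Carriers named in the text are those called, those with another probe set past the adjusted p and 2-fold, the 10 of highest mean signal, and 26 with known roles in liver (1 of them is not reported here), and the few others named at the study's threshold, or as examples of a family, were chosen after their values were seen. The members, the lists of markers, partners, sensing and ATF4 genes, and the tests were chosen with earlier results of these data known. Alternatives were quantile normalization, median centring, other floors, a filter on dim probe sets, 8 arrays only, a trended robust fit, the median over probe sets, and leaving out each array.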

Additional observations from a re-analysis of the deposited data

Results flagged for a closer look

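Among 84 values tested (28 named carriers in 3 groups of 4 arrays), chance alone would set apart about 1 in 20, and 1 was set apart. For Slc16a7 the array of control 3 lay below the other controls, at a log2 signal of 10.631 against 10.996 to 11.047, a gap of 0.876 of the group's range. Without control 3 the difference of recovery from control lost its call (adjusted p = 0.051), and that of SHS4m kept it.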

How the results depend on the processing

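The count of carriers called in SHS4m against control, 9, was 4 with a floor of 1. At the study's threshold its count of 2 was 1 under quantile normalization, 6 with a floor of 1 and 4 by the median over probe sets. Recovery against control went from 4 to 1 with a floor of 1 (a different carrier, Slc7a6) and to 1 when only the 8 arrays compared were fitted, and at the study's threshold from 4 to 1 by the median over probe sets. Recovery against SHS4m went from 4 to 2 under median centring, the 25th percentile floor, the floor of 1, the filter on dim probe sets, the fit of 8 arrays and the median over probe sets. Leaving out single arrays gave 7 to 10, 1 to 6 and 1 to 3 carriers at the adjusted p in the 3 comparisons, and 1 to 5, 3 to 5 and 2 to 4 at the study's threshold. The lowest counts in recovery against SHS4m, 1 carrier, were without control 1, SHS4m 66, SHS4m 68 or recovery 73, and 2 were called without control 3 or 4, SHS4m 67 or 69, or recovery 71 or 72. In SHS4m at the study's threshold, 1 passed without control 1 or SHS4m 67, 5 without control 2 and 4 without SHS4m 66 or 69, and in recovery against SHS4m 4 passed without SHS4m 66 or 68. The cause of these changes was not tested.

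Of 17 called values of single carriers, 3 (Slc16a5, Slc16a10 and Slc7a2 in SHS4m) kept their call under all 20 alternatives. The floor of 1 ended 12 of the 17: Slc16a7, Slc38a4, Slc3a2, Slc6a12 and Slc7a9 in SHS4m (adjusted p = 0.0642, 0.0841, 0.167, 0.0751 and 0.0527), all 4 in recovery against control (Slc38a3, Slc16a12, Slc16a7 and Slc1a4, 0.0594 to 0.145), and Slc16a1, Slc38a3 and Slc7a8 in recovery against SHS4m (0.0791 to 0.293). The fit of 8 arrays ended 8. Of 1671 values of named carriers under the alternatives, 94 lost a call, 12 gained 1 and 0 turned direction while called. No paired analysis was possible because the groups share no replicate numbers. Low signals limit what can be said of the 33 carriers near the floor, where a change can be hidden by the floor.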
